A study of Homo sapiens with 24 samples.

Results

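The 56 genes described here lie in 1 segment of chromosome 17, from RSKR at 17q11 to SMARCE1 at 17q21. They were selected on measured values: the segment was taken because its genes were higher in HaCaT clones carrying miR-186 than in clones carrying the empty vector, so that difference is described below and not tested. All 56 were found among the 58381 gene IDs of the deposited table, and all 56 were among the 14228 genes that entered the tests, whose FPKM (fragments normalized to transcript length and sequencing depth) averaged 0.5 or more. On GRCh38 the members run from position 28607964 to 40648864 of chromosome 17, a length of 12 Mb.

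HaCaT is an immortalized, non-malignant human keratinocyte line. Per the labels' protocols, 3 clonal lines were transduced with an empty vector and 3 with hsa-miR-186, and all of them were kept without iAs (inorganic arsenic) or in 100 nM iAs until RNA was taken at weeks 12 and 29. That gave 8 groups of 3 libraries: vector at 0 nM, vector at 100 nM, miR-186 at 0 nM and miR-186 at 100 nM, each in both weeks. The 12 libraries of a construct therefore come from 3 clones and are not 12 independent samples, and a property of a clone cannot be told apart from an effect of its construct where all 3 clones share it. The libraries were made from poly(A) mRNA, so the mature miRNA itself is not measured, and DNA copy number was not analysed here.

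The segment holds genes that work in many separate processes, among them the receptor tyrosine kinase ERBB2 and its adaptor GRB7, the Mediator subunits MED1 and MED24, which link transcription factors to RNA polymerase II, the transcription-elongation kinase CDK12, and the BAF chromatin-remodelling subunit SMARCE1. It is well known in oncology because the stretch around ERBB2 is gained in a share of breast and gastric cancers, and the neighbouring genes are then gained and expressed with it. A microRNA acts by lowering the stability and translation of mRNAs that carry matches to its seed.

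Library sums were 712797 to 905683 FPKM, and 13803 to 14588 genes reached 0.5 FPKM in a library. The files hold no read counts, so the depth behind a value is unknown. Of the 7 keratinocyte markers, all were above 0 in the 24 libraries, and their summed level was 2054 to 4075 FPKM in the vector libraries and 911 to 2741 FPKM in the miR-186 libraries. Sums for other cell types stayed low: fibroblast markers at 1.32 to 17.6 FPKM, melanocyte markers at 2.94 to 11.2 FPKM, leukocyte markers at 1.13 to 7.48 FPKM and endothelial markers at 4.04 to 20.9 FPKM. The melanocyte gene TYR was at 0 in all 24 libraries and the fibroblast gene COL1A2 in 21. Some other markers were above 0 in every library, among them melanocyte MITF (up to 9.57 FPKM) and fibroblast LUM (up to 17.2 FPKM). So were leukocyte CD68 (up to 7.25 FPKM) and endothelial CDH5 (up to 20.6 FPKM). The keratinocyte sums of the constructs overlap, and KRT5 and KRT14, with medians of 1032 and 639 FPKM over the 24 libraries, weigh most in them. The other keratinocyte markers had medians of 61.4 to 190 FPKM, so the sums say little about those. The lower keratinocyte sums accompany the higher 17q levels in the miR-186 clones, and their part in the differences below was not tested.

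One library stands apart within the segment. In the third miR-186 replicate at 100 nM and week 29, the middle part of the segment, from ARHGAP23 to SMARCE1, was close to the vector level, while the part before it, from RSKR to SOCS7, was as high as in the other miR-186 libraries. Means and folds over 12 miR-186 libraries include it. Without it the log2 difference of a middle member was higher by a median of 0.061 (0.0075 to 0.14), and that of a proximal member moved by -0.059 to 0.073.

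For sequence context, the bases upstream of the RefSeq start of 4 members are shown: FBXL20, CDK12 and WIPF2, whose levels in every miR-186 library exceeded those in every vector library, and IGFBP4, which lies between them and SMARCE1 and was not higher. Each run holds 250 bases before the start, 5′ to 3′ on the gene's strand, from RefSeq on GRCh38.p14. Capitals mark a GC box (GGGCGG, or CCGCCC on the other strand), a motif bound by SP1-family factors. FBXL20 (chr17:39402557-39402806, minus strand), a substrate-recognition subunit of a ubiquitin ligase, CDK12 (chr17:39461236-39461485, plus strand), WIPF2 (chr17:40219054-40219303, plus strand), a binding partner of the actin regulator N-WASP, and IGFBP4 (chr17:40443200-40443449, plus strand), a secreted protein that binds insulin-like growth factors, read as follows.
FBXL20: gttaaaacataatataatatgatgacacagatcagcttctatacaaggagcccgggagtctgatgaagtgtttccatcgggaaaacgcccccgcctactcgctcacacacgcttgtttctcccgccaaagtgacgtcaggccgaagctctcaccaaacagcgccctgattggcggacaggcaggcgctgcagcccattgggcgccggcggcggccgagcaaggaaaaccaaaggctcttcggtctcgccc
CDK12: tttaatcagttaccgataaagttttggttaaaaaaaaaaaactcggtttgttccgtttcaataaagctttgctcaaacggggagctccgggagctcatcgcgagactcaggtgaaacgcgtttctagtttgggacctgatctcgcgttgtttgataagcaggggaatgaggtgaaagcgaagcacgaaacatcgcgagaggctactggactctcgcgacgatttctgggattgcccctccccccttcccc
WIPF2: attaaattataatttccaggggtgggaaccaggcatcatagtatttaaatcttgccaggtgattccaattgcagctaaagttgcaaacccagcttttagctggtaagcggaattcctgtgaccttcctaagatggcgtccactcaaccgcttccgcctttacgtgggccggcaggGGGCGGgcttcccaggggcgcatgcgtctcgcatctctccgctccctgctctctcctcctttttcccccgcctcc
IGFBP4: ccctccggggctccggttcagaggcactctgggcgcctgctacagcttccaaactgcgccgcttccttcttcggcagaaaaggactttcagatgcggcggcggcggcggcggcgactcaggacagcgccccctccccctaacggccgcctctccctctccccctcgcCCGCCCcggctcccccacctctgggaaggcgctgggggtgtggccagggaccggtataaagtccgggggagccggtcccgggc

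These 4 windows differ widely in base composition, from 48.8% GC in CDK12 and 54% in WIPF2 to 56.8% in FBXL20 and 71.6% in IGFBP4. The FBXL20 and CDK12 windows hold no GC box, and the WIPF2 and IGFBP4 windows hold 1 each. Of the 56 members, 46 had an upstream window in the RefSeq table, with a median of 65.8% GC and 22.5 CpG dinucleotides, against 58% and 11 over 35116 windows of the same length. On either strand a GC box was present in 35 of the 46 windows (76.1%, against 42.6% of all windows), a TATA box (TATAAA) in 1 (2.17% against 10.7%), an E-box (CACGTG) in 3 (6.52% against 6.34%) and a CCAAT box (CCAAT) in 13 (28.3% against 32%). None of the 4 motifs contains another, and a match describes the window only. All members passed the 0.5 FPKM filter, whereas the 35116 windows outnumber the 14228 tested genes and are not matched for expression. The gaps in base composition and motifs therefore cannot be read as particular to the members.

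Over all 24 libraries the members stood higher in the miR-186 clones by a median of 0.56 on the log2(FPKM + 0.5) scale, which is 1.48-fold, and 54 of 56 had a mean difference above 0. The median over all 14228 genes was -0.01, and 3.94% of all genes had a difference above the members' median. In 10 members every miR-186 library was above every vector library, a pattern that 0.429% of all genes showed. They were RSKR, BLMH, NF1, CWC25, FBXL20, MED1, CDK12, CASC3, WIPF2 and SMARCE1. Since the members were chosen for this contrast, the counts are read as a description of them and support nothing further. Over the 11 miR-186 libraries without the one that stands apart, the members' median was 0.60, 55 of 56 were above 0, and 16 had every library above every vector library, as 0.675% of all genes did; the 6 added were PIP4K2B, LASP1, MIEN1, ORMDL3, MED24 and MSL1.

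**Figure D1:**
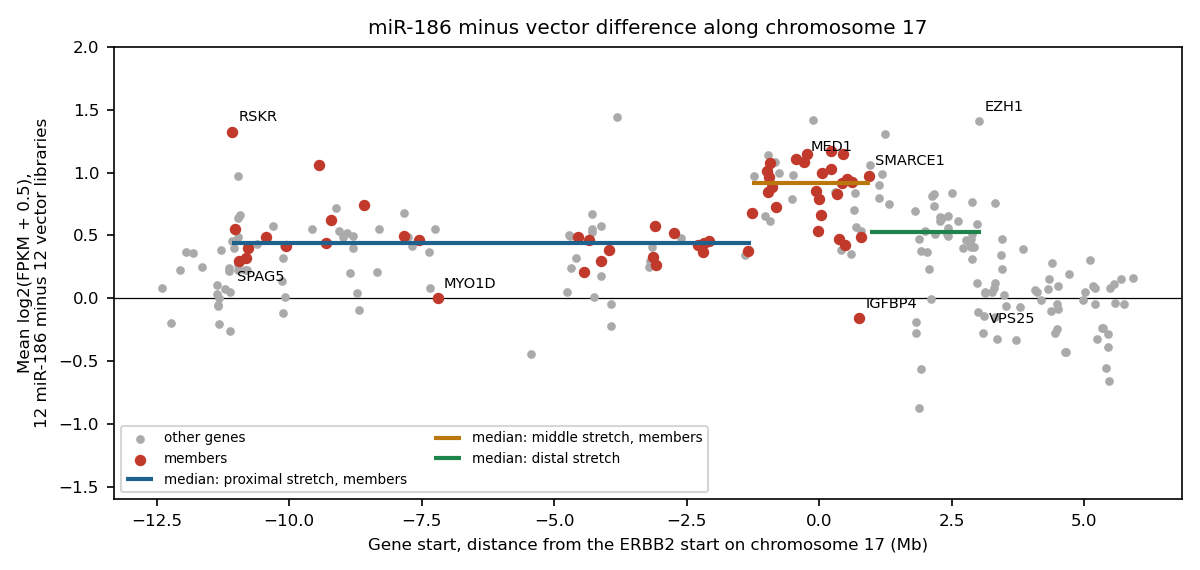
Each point is a gene averaging 1 FPKM or more, placed by the distance of its start from that of ERBB2 on chromosome 17 (x, Mb) and by its mean log2(FPKM + 0.5) in the 12 miR-186 libraries minus that in the 12 vector libraries (y); red points are members and bars are medians of 3 stretches. The proximal members have a median of 0.44, the middle members of 0.92, and the genes from SMARCE1 to EZH1, none of them members, of 0.52.

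The difference was not even along the segment. In the proximal stretch, RSKR to SOCS7, 29 members had a median difference of 0.44, or 1.35-fold, and the 74 other genes tested there had 0.40. In the middle stretch, ARHGAP23 to SMARCE1, 27 members had a median of 0.92, or 1.89-fold, and the 19 other genes had 0.79. Without the library that stands apart, the middle members had 1.00 and the proximal members 0.45. Beyond SMARCE1, 48 genes reaching to EZH1 had a median of 0.52, or 1.44-fold, although none of them is a member. The 281 chromosome 17 genes before RSKR had a median of -0.00057 and the 403 after EZH1 of -0.04. These boundaries were drawn after the values were seen, so the steps between stretches carry no test.

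On each side of the segment, the 3 nearest genes averaging 5 FPKM or more were taken as flanks. RSKR, a kinase-like protein, was 2.51-fold higher, and SPAG5, a spindle gene and the nearest flank, was at 1.04-fold, with 9.11, 16.2 and 20.9 FPKM as the lowest, median and highest vector libraries and 6.23, 16 and 28.5 FPKM in the miR-186 libraries. Between the pair lies the non-coding AC005726.3, of low level, which was 1.8-fold higher, with 0.212 to 0.829 FPKM in the vector and 0.37 to 1.63 FPKM in the miR-186 libraries. The other 2 flanks on that side, the aldolase gene ALDOC and the GPI-transamidase subunit PIGS, were at 0.834-fold and 1.16-fold. At the other end, the keratin gene KRT10 (1.74-fold), KRT10-AS1 (1.87-fold), which overlaps it in antisense, and KRT13 (1.61-fold) are the flanks after SMARCE1 and were higher. Lower-level genes among them, the antisense ENSG00000278834, KRT20, KRT23 and KRTAP3-1, were 1.69-fold to 2.47-fold higher. Further on, the keratins KRT15 (0.876-fold), KRT19 (0.825-fold), KRT14 (0.546-fold) and KRT16 (0.678-fold) were below 1, while KRT9 (1.39-fold) and KRT17 (1.29-fold) were above. KRT14 is also among the keratinocyte markers. EZH1, a Polycomb histone methyltransferase whose far end lies 14.1 Mb from the RSKR start, was 2.66-fold higher with no overlap between constructs, at 6.83 to 12.6 FPKM against 15.6 to 38.6 FPKM. The gene after it, the endosomal sorting gene VPS25, was at 0.824-fold.

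Most other genes of the segment were higher too, 67 of 74 in the proximal and 19 of 19 in the middle stretch. Of these 93 genes, the 5 with the largest differences among those averaging 1 FPKM or more were the chemokine CCL5 (2.72-fold), the non-coding AC009283.1 (2.67-fold), ENSG00000279119 (2.2-fold), ENSG00000266469 (2.13-fold) and the ribosomal protein gene RPL23 (2.12-fold). RPL23 is the most abundant of these, with vector libraries at 1322, 1967 and 2772 FPKM and miR-186 libraries at 2336, 3801 and 6797 FPKM for the lowest, median and highest. The 5 smallest were the chemokine CCL2 (0.733-fold), ENSG00000271392 (0.856-fold), TP53I13 (0.921-fold), the pseudogene ENSG00000264148 (a median of 0 FPKM in both constructs) and the metalloproteinase MMP28 (0.967-fold). CCL2 varied from 6.03 to 214 FPKM among the vector libraries alone.

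Across the genome, chromosomes were divided into windows of 2 Mb, and 464 windows held 10 or more genes averaging 1 FPKM or more. The 4 windows whose median difference exceeded 0.4 were all on chromosome 17. The median of all window medians was -0.02. At the low end, 14 windows had a median below -0.4, 11 of them on chromosome 14, and the lowest, at -0.64, was on that chromosome too.

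Within each dose and week, the members' median difference was 0.89 at 0 nM in week 12, 0.64 at 100 nM in week 12, 0.63 at 0 nM in week 29 and 0.50 at 100 nM in week 29. Without the third miR-186 replicate at 100 nM and week 29 the last value was 0.59. The contrast is the one that chose the members, so no calls are given for it.

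In the same order the middle members had medians of 1.21, 0.95, 0.79 and 0.59, while the proximal members had 0.41, 0.43, 0.55 and 0.39. Without the third miR-186 replicate at 100 nM and week 29, the last values were 0.83 in the middle and 0.40 in the proximal stretch. With a correction of each library for its trend over gene GC content, the middle medians were 1.11, 1.04, 1.03 and 0.78, the last 0.99 without that replicate, and so lay closer together. Middle members have a median GC content of 57.1%, proximal members 47.9% and all tested genes 48.6%.

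**Figure D2:**
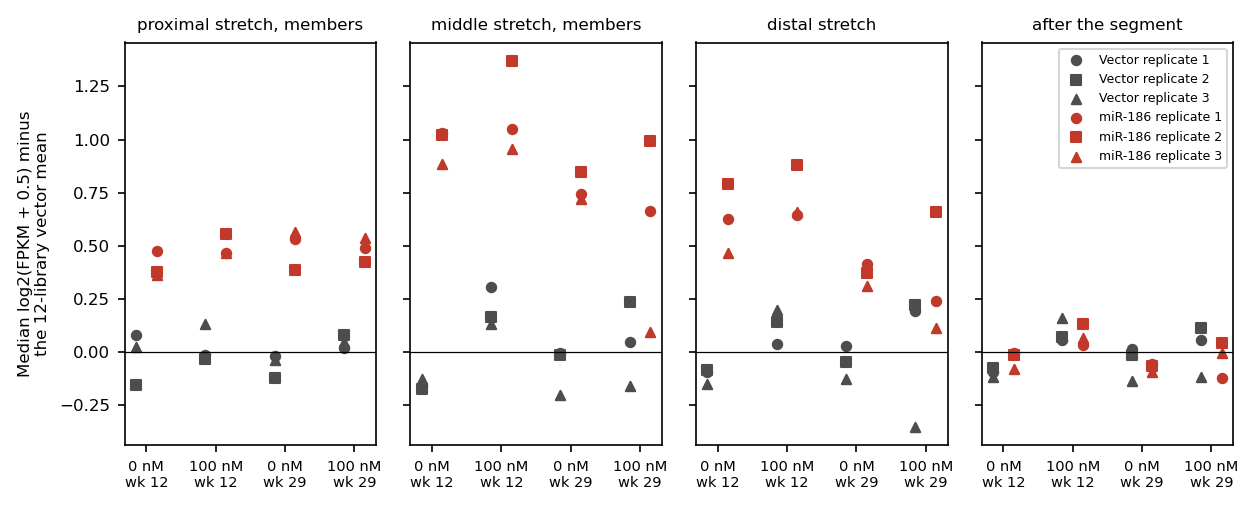
Each point is 1 library, placed by construct, dose and week (x), with the median over the genes of a stretch of log2(FPKM + 0.5) minus the mean of the 12 vector libraries (y); marker shapes are replicate numbers. In the proximal stretch the miR-186 libraries sit between 0.36 and 0.57, above the vector libraries; in the middle stretch the third replicate at 100 nM and week 29 sits at 0.09, among the vector libraries, and the other 11 lie between 0.66 and 1.37.

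In single libraries the proximal median was -0.15 to 0.13 in the 12 vector libraries and 0.36 to 0.57 in the 12 miR-186 libraries, so the constructs did not overlap. The middle median was -0.20 to 0.31 in the vector libraries. In 11 miR-186 libraries it was 0.66 to 1.37, and in the third replicate at 100 nM and week 29 it was 0.09. GC correction narrowed the vector range to -0.12 to 0.18 and the 11 miR-186 libraries to 0.89 to 1.25, with the remaining library at 0.22. The distal stretch followed the middle one: after GC correction 11 miR-186 libraries lay at 0.55 to 0.78, and that same library at 0.13. Without the correction the distal medians lay closer together. They were 0.24 to 0.88 in the 11 and 0.11 in that library, against -0.35 to 0.22 in the vector libraries.

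Gene by gene, this library was the lowest of the 12 miR-186 libraries for 24 of 27 middle members and for 4 of 29 proximal members. Against the mean of its 2 group mates, the median difference was -0.69 in the middle members (0.622-fold) and -0.06 in the proximal members (0.959-fold). With GC correction those medians were -0.83 and -0.04. The 19 other middle genes and the 48 distal genes gave -0.48 and -0.46. By its medians the library thus kept the miR-186 level in the proximal stretch, and was near the vector level in the middle and distal stretches. Gene by gene the distal stretch was less clear, with this library the lowest of the 12 for 19 of 48 genes. In 35 of the 48 it was below the highest vector library, as was the lower of its 2 group mates in 33. What sets it apart was not tested.

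**Figure D3:**
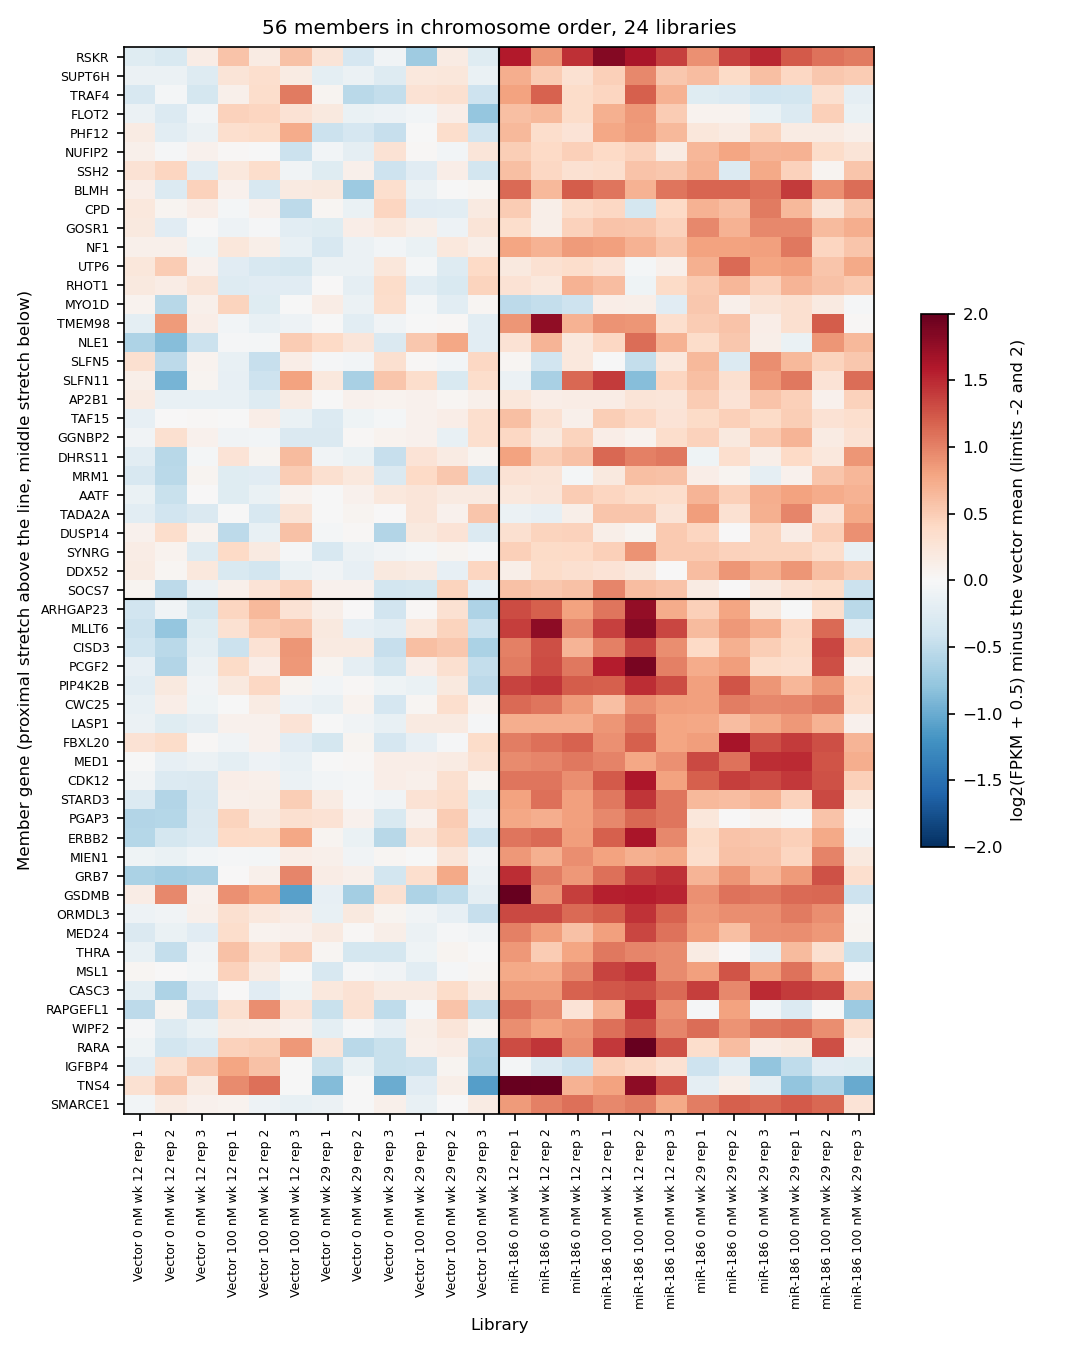
Rows are the 56 members in chromosome order and columns the 24 libraries; colour is log2(FPKM + 0.5) minus the mean of the 12 vector libraries, from -2 (blue) to 2 (red). The miR-186 columns are redder below the line at SOCS7 and ARHGAP23 than above it, except in the last column, the third replicate at 100 nM and week 29, which is pale below the line.

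Among the 9 transcription genes the median was 1.46-fold. MED1 (chromosome 17, 39404285 to 39451286, ENSG00000125686), a Mediator subunit contacted by nuclear receptors, was 2.12-fold higher. In week 12 the MED1 level was 19.6, 17.4 and 18.1 FPKM in the vector clones at 0 nM and 17, 18.2 and 17.6 FPKM at 100 nM, against 38.4, 39.1 and 41.5 FPKM and 39.5, 33.9 and 37.5 FPKM in the miR-186 clones. In week 29 the MED1 level was 19.5, 20 and 21.5 FPKM in the vector clones at 0 nM and 21.5, 22 and 24.3 FPKM at 100 nM, against 50, 42.3 and 55.4 FPKM and 56, 47.5 and 32.8 FPKM in the miR-186 clones. The lowest miR-186 value, 32.8 FPKM, came from the library that stands apart and was still above the highest vector value, 24.3 FPKM.

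CDK12 (chromosome 17, 39461511 to 39564907, ENSG00000167258), which phosphorylates RNA polymerase II during elongation, was 2.22-fold higher, the largest difference of this group. In week 12 the CDK12 level was 15.4, 13.3 and 13.2 FPKM in the vector clones at 0 nM and 17.7, 17.3 and 14.9 FPKM at 100 nM, against 34.6, 34.5 and 31.3 FPKM and 38.3, 50.4 and 28.5 FPKM in the miR-186 clones. In week 29 the CDK12 level was 15.5, 15.8 and 17.7 FPKM in the vector clones at 0 nM and 17.4, 20.2 and 16.9 FPKM at 100 nM, against 37.5, 43 and 41.2 FPKM and 43.9, 39.9 and 22.7 FPKM in the miR-186 clones. The constructs did not overlap, and the library that stands apart, at 22.7 FPKM, was nearest to the vector range.

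Of the other transcription genes, RARA, a retinoic acid receptor, was 1.9-fold higher, MED24 1.77-fold, the elongation factor SUPT6H 1.46-fold, AATF 1.43-fold, the thyroid hormone receptor THRA 1.39-fold, the adaptor TADA2A 1.34-fold and the RNA-binding TAF15, the smallest, 1.3-fold. TAF15 had 88.1, 106 and 135 FPKM as its lowest, median and highest vector values and 115, 140 and 162 FPKM in the miR-186 libraries, which overlap. MED24 and THRA overlap on opposite strands. The strand setting of the counting is not given in the sources used here, so reads of such pairs cannot be told apart; 21 members overlap a tested gene on the opposite strand.

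Among the 5 chromatin genes the median was 1.95-fold. SMARCE1 (chromosome 17, 40624962 to 40648864, ENSG00000073584) was 1.96-fold higher. In week 12 the SMARCE1 level was 66.8, 77.9 and 73.5 FPKM in the vector clones at 0 nM and 72.8, 64.7 and 62.4 FPKM at 100 nM, against 125, 140 and 149 FPKM and 135, 142 and 117 FPKM in the miR-186 clones. In week 29 the SMARCE1 level was 63.6, 68.8 and 74.8 FPKM in the vector clones at 0 nM and 62.2, 69.5 and 77.5 FPKM at 100 nM, against 141, 159 and 155 FPKM and 163, 154 and 83.5 FPKM in the miR-186 clones. The constructs were separate in all 4 pairs of groups, and 83.5 FPKM in the library that stands apart was just above the highest vector value, 77.9 FPKM. MLLT6, a reader in histone methylation complexes, had the largest difference, 2.02-fold, with 8.11, 14.5 and 21.4 FPKM against 12.3, 30 and 51.3 FPKM as lowest, median and highest. Its difference ranged from 0.37 to 1.86 on the log2 scale over the 4 dose and week pairs, the lowest at 100 nM in week 29, where it was 0.69 without the library that stands apart. The Polycomb subunit PCGF2 was 1.95-fold and MSL1, a scaffold of the MSL acetyltransferase complex, 1.89-fold higher, and PHF12, a corepressor subunit, was the smallest at 1.32-fold, with 5.96, 8.02 and 14.3 FPKM against 9.06, 10.5 and 15.6 FPKM.

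In the signalling group of 9 the median was 1.34-fold. ERBB2 (chromosome 17, 39687914 to 39730426, ENSG00000141736) was 1.73-fold higher. In week 12 the ERBB2 level was 15.7, 18.5 and 19.4 FPKM in the vector clones at 0 nM and 31.4, 31 and 40.9 FPKM at 100 nM, against 50.1, 52.7 and 42.8 FPKM and 54.5, 74.6 and 46.3 FPKM in the miR-186 clones. In week 29 the ERBB2 level was 24.5, 21.4 and 16 FPKM in the vector clones at 0 nM and 28, 32.4 and 17.6 FPKM at 100 nM, against 30.8, 35.3 and 34.6 FPKM and 33.2, 40.4 and 22.6 FPKM in the miR-186 clones. The miR-186 libraries were higher at 0 nM in both weeks and in week 12 at 100 nM, whereas at 100 nM in week 29 the constructs overlapped through the library that stands apart, at 22.6 FPKM; its 2 group mates were above the 3 vector libraries. ERBB2 overlaps PGAP3 and MIEN1 on the opposite strand. Its difference was 1.42 at the largest and 0.30 at the smallest of the 4 pairs, the one at 100 nM in week 29, where it was 0.53 without that library.

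PIP4K2B, a lipid kinase, had the largest signalling difference, 2.11-fold, with 8.46, 12.2 and 16.6 FPKM against 16.5, 29.2 and 35.4 FPKM. GRB7 was 2-fold and NF1, the RAS-inactivating neurofibromin, 1.67-fold higher. NF1 has partial pseudogene copies elsewhere in the genome, so its value is uncertain. RAPGEFL1 was 1.34-fold, SOCS7 1.29-fold, the phosphatase DUSP14 1.29-fold and the adaptor TRAF4 1.23-fold higher. IGFBP4 was the smallest at 0.895-fold, with 2.21, 3.46 and 6.63 FPKM against 1.91, 3.02 and 5.29 FPKM. It is the only middle member whose mean was not higher, and no miR-186 library exceeded its highest vector library.

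Of the 7 RNA genes, CASC3 (chromosome 17, 40140318 to 40172183, ENSG00000108349), an exon junction complex component, had the largest difference, 2.21-fold. In week 12 the CASC3 level was 25.3, 18.7 and 24.7 FPKM in the vector clones at 0 nM and 29.2, 24.7 and 27.5 FPKM at 100 nM, against 53.2, 52.7 and 66.9 FPKM and 69.4, 72.1 and 64.4 FPKM in the miR-186 clones. In week 29 the CASC3 level was 33.7, 35.6 and 32.9 FPKM in the vector clones at 0 nM and 32.9, 37.6 and 32.5 FPKM at 100 nM, against 76.5, 56.9 and 82.7 FPKM and 77.6, 75.3 and 44.1 FPKM in the miR-186 clones. The constructs were separate in every pair of groups, with the library that stands apart the lowest of the 12. The splicing factor CWC25 was 1.85-fold higher. UTP6 and NLE1, which act in ribosome assembly, were 1.41-fold and 1.4-fold higher, NUFIP2 1.4-fold and the helicase DDX52 1.37-fold. MRM1, a mitochondrial ribosomal RNA methyltransferase, was the smallest at 1.2-fold, with 1.09, 1.69 and 2.88 FPKM against 1.54, 2.2 and 3.15 FPKM.

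In the membrane traffic and lipid group of 8 the median was 1.4-fold. ORMDL3 (chromosome 17, 39921041 to 39927601, ENSG00000172057), which restrains serine palmitoyltransferase, was 2.04-fold higher, the largest of the group. In week 12 the ORMDL3 level was 18.1, 18.5 and 21 FPKM in the vector clones at 0 nM and 24.4, 22.6 and 21.7 FPKM at 100 nM, against 49.7, 49.3 and 43.3 FPKM and 45.6, 54.2 and 44.7 FPKM in the miR-186 clones. In week 29 the ORMDL3 level was 17.6, 22.4 and 20.2 FPKM in the vector clones at 0 nM and 18.5, 17.4 and 14 FPKM at 100 nM, against 36, 37.4 and 37.8 FPKM and 40.5, 37.5 and 20.1 FPKM in the miR-186 clones. In 11 miR-186 libraries the level was above every vector library, and in the library that stands apart, at 20.1 FPKM, it was within the vector range. The cholesterol carrier STARD3 was 1.81-fold, the Golgi SNARE GOSR1 1.54-fold, the GPI-anchor remodelling gene PGAP3 1.45-fold, the carboxypeptidase CPD 1.35-fold, SYNRG 1.35-fold and the raft protein FLOT2 1.25-fold higher. AP2B1, a clathrin adaptor subunit, was the smallest at 1.23-fold, with 103, 129 and 139 FPKM against 131, 147 and 183 FPKM.

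**Figure D4:**
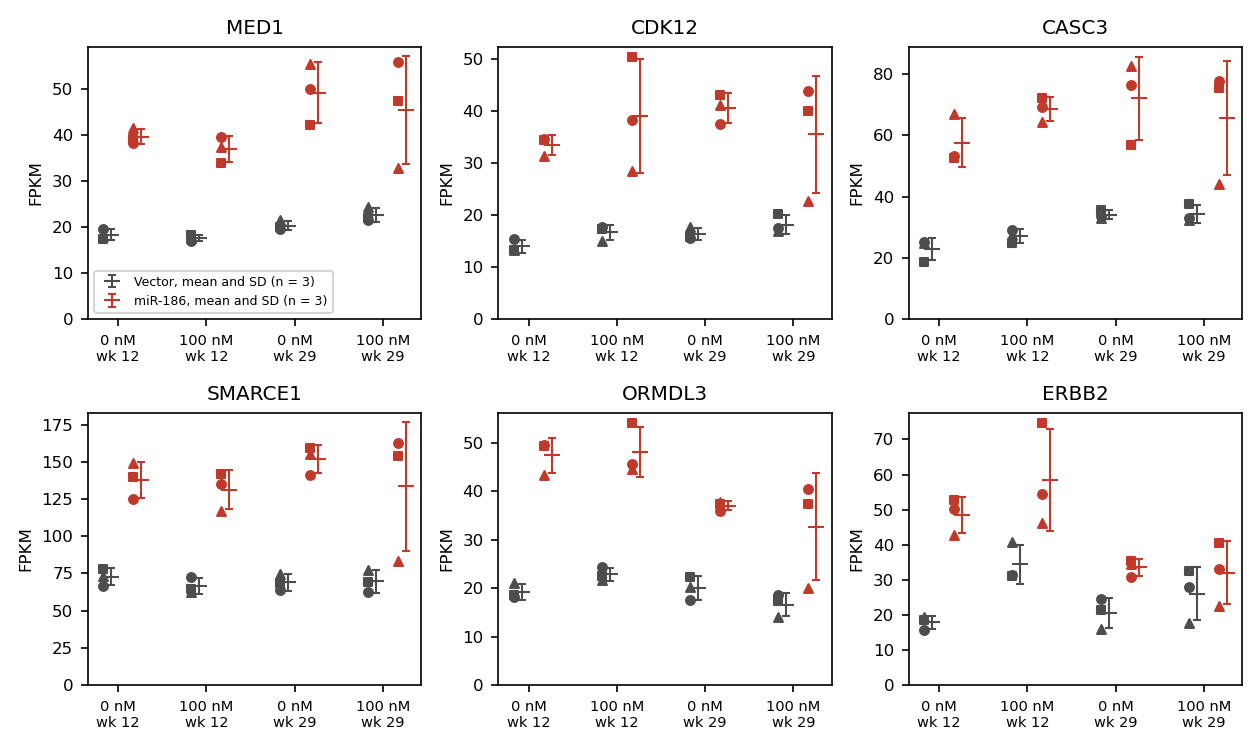
FPKM (y) of 6 middle-stretch members in every library by dose and week (x); points are libraries, marker shapes are replicate numbers, and bars are the mean and SD of 3 libraries. MED1, CDK12, CASC3, SMARCE1 and ORMDL3 are separate between constructs in all 4 pairs, and ERBB2 overlaps at 100 nM and week 29. The lowest miR-186 point at 100 nM and week 29 is the third replicate in each of the 6 genes.

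Among the 7 cytoskeletal genes, WIPF2 had the largest difference, 1.93-fold, with 12.7, 15.4 and 18.1 FPKM against 19.2, 29.9 and 38 FPKM and no overlap. The focal adhesion gene LASP1 was 1.65-fold, ARHGAP23 1.6-fold, MIEN1 1.58-fold, TNS4, a tensin of epithelial adhesions, 1.41-fold and the cofilin phosphatase SSH2 1.34-fold higher. MYO1D, an unconventional myosin, was at 0.999-fold, with 27.5, 41.1 and 55.7 FPKM against 28.1, 43.9 and 59 FPKM. It was the proximal member with the smallest difference.

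GSDMB, a gasdermin, was 2.25-fold higher but spread widely, with 6.07, 13.1 and 26.7 FPKM against 9.97, 30.2 and 63.2 FPKM. The interferon-inducible SLFN11 was 1.38-fold and SLFN5 1.16-fold higher, SLFN5 with 75.4, 109 and 144 FPKM against 77.9, 125 and 206 FPKM. Of the 8 remaining members, RSKR had 0.7, 1.52 and 2.42 FPKM against 3.12, 4.54 and 6.49 FPKM and the largest difference of all 56. FBXL20 was 2.16-fold, the peptidase BLMH 2.08-fold, the iron-sulfur protein CISD3 1.79-fold, TMEM98 1.61-fold, the reductase DHRS11 1.49-fold, the mitochondrial transport GTPase RHOT1 1.38-fold and GGNBP2 1.25-fold higher. GGNBP2 had 36.9, 44.6 and 56.9 FPKM against 47.3, 56.7 and 72.9 FPKM. TMEM98 is the least abundant member, with a mean of 0.592 FPKM, and LASP1, AP2B1, SLFN5 and TAF15 are the 4 most abundant.

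Dose and week were not used to choose the members. They were tested with limma, and a gene is called where its p, adjusted by Benjamini-Hochberg over all 14228 genes, is under 0.05. In the vector clones at week 12, PGAP3 rose with 100 nM iAs from 3.72 ± 0.50 to 6.84 ± 0.70 FPKM (SD, n = 3), a log2 difference of 0.80 ± 0.19 (SE; limma adjusted p = 0.048), and no other member passed, where 1.38% of all genes did. In this comparison 21 of the 56 members had an unadjusted p under 0.05, as did 29.3% of all genes. The 3 exposed PGAP3 libraries, at 7.54, 6.13 and 6.84 FPKM, lay above the 3 unexposed ones, at 3.41, 3.45 and 4.3 FPKM. ERBB2, with which PGAP3 overlaps, had a difference of 0.92 ± 0.23 (adjusted p = 0.051, limma), and GRB7 1.02 ± 0.27 (adjusted p = 0.052, limma). PGAP3 lost its call with GC correction (0.21, limma adjusted p = 0.61) and without any 1 of the 6 libraries.

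In the other iAs comparisons limma called no member. In the miR-186 clones at week 12, the 4 members with an unadjusted p under 0.05 were led by TADA2A (0.51 ± 0.19, adjusted p = 0.36, limma), IGFBP4 (0.64 ± 0.23) and MYO1D (0.47 ± 0.19). In the vector clones at week 29, 2 members had an unadjusted p under 0.05, TAF15 (0.32 ± 0.13) and PHF12 (0.40 ± 0.17), and the third by p was SUPT6H (0.29 ± 0.14). In the miR-186 clones at week 29, 1 member did, ARHGAP23 (-0.56 ± 0.27), followed by TNS4 (-0.72 ± 0.37) and PIP4K2B (-0.34 ± 0.18); without the third 100 nM replicate these differences were -0.32, -0.62 and -0.22, and no member was called. Among all genes 0% were called in each of these 3 comparisons, with 1558, 555 and 312 genes at an unadjusted p under 0.05.

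Between weeks 12 and 29 limma called no member in the vector clones. At 0 nM, 0.907% of all genes were called. There 7 of the 56 members had an unadjusted p under 0.05, as did 9.48% of all genes. These members were led by CASC3 (0.57 ± 0.19, adjusted p = 0.23, limma), PGAP3 (0.51 ± 0.19) and NLE1 (0.75 ± 0.28). At 100 nM, 0.183% of all genes were called. There 12 members had an unadjusted p under 0.05, as did 14.5% of all genes. The first were IGFBP4 (-0.79 ± 0.23, adjusted p = 0.17, limma), FLOT2 (-0.63 ± 0.20) and TNS4 (-1.08 ± 0.37).

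In the miR-186 clones at 0 nM, 4 members changed between the weeks, where 2.9% of all genes did. TNS4 fell by 1.65 ± 0.37 on the log2 scale (SE; limma adjusted p = 0.023), from 90.9, 88.8 and 36.2 FPKM in week 12 to 19.5, 24 and 19.5 FPKM in week 29. TRAF4 fell by 1.09 ± 0.27 (limma adjusted p = 0.036). MYO1D rose by 0.76 ± 0.19, from 29.2 ± 1.21 to 50.4 ± 7.89 FPKM (SD, n = 3; limma adjusted p = 0.037), and GOSR1 rose by 0.57 ± 0.15 (limma adjusted p = 0.044). With GC correction 2 members were called, TNS4 and TRAF4, both lower. Leaving out the first or the second week 12 library, or the first or the third week 29 library, left none.

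At 100 nM in the miR-186 clones, 17 members changed between the weeks, 15 of them lower, where 12.2% of all genes changed. TNS4 had the largest change, from 39.2, 78 and 55.3 FPKM in week 12 to 12.6, 14.4 and 10.8 FPKM in week 29, a fall by 2.10 ± 0.37 (SE; limma adjusted p = 0.0041), and all 3 later libraries were below all 3 earlier ones. It was the 1 member that stayed past the threshold under all 15 alternative settings. RAPGEFL1 fell by 1.37 ± 0.32, ARHGAP23 by 1.26 ± 0.27, RARA by 1.06 ± 0.30 and MLLT6 by 1.06 ± 0.28. PCGF2, PGAP3, ERBB2, THRA, IGFBP4, PIP4K2B and ORMDL3 also fell, by 0.61 to 0.92, as did the proximal TRAF4, FLOT2 and PHF12, by 0.62 to 0.85.

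ERBB2 went from 58.5 ± 14.6 to 32.1 ± 8.97 FPKM (SD, n = 3), a fall by 0.87 ± 0.23 (limma adjusted p = 0.025). The 2 members that rose, UTP6 (0.60 ± 0.16) and DDX52 (0.51 ± 0.15), are both proximal. The ERBB2 call was lost with GC correction (-0.39, limma adjusted p = 0.19) and without the third week 29 replicate (-0.64, limma adjusted p = 0.11). With GC correction 5 members were called, 1 higher and 4 lower, and of the 17 only TNS4 and RAPGEFL1 were still among them. Without the third week 29 replicate 5 were called, with ARHGAP23, PGAP3 and TNS4 from the 17. Without the first week 29 replicate 5 were called, with ARHGAP23, ORMDL3, THRA and TNS4 from the 17, and without the second week 12 replicate only TNS4 was called. The share of all genes called under these settings is not given, so whether the member counts follow it cannot be told.

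Over the 27 middle members the median change from week 12 to week 29 in the miR-186 clones at 100 nM was -0.61, and -0.30 without the third week 29 replicate. After GC correction it was -0.33, and -0.04 without that replicate. At 0 nM the same median was -0.34, and -0.10 after GC correction. In the vector clones it was 0.11 at 0 nM and -0.25 at 100 nM, and 0.03 and -0.10 after GC correction. The proximal members had medians of 0.10 at 100 nM and 0.06 at 0 nM in the miR-186 clones. The middle-stretch shift between weeks in the miR-186 clones was therefore smaller after GC correction at both doses. At 100 nM it was also smaller without the third week 29 replicate.

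**Figure D5:**
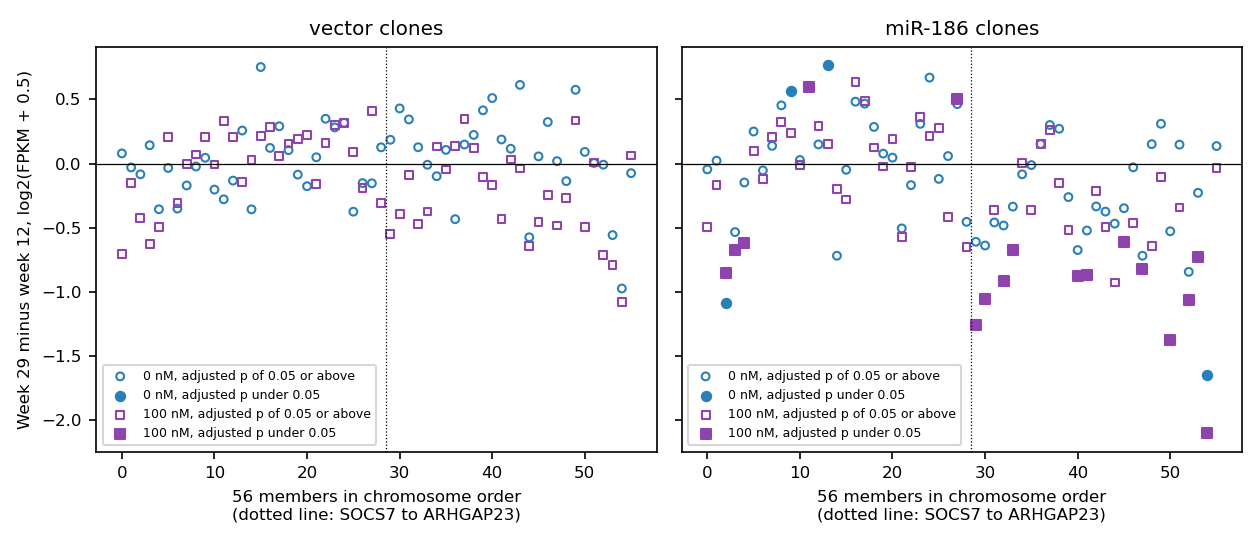
Week 29 minus week 12 in log2(FPKM + 0.5) (y) for the 56 members in chromosome order (x), in vector clones (left) and miR-186 clones (right), at 0 nM (circles) and 100 nM (squares); filled points have a limma adjusted p under 0.05. No member passed in the vector clones; in the miR-186 clones 4 passed at 0 nM and 17 at 100 nM, 12 of the 17 to the right of the dotted line between SOCS7 and ARHGAP23.

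Whether the construct difference itself changed with week or dose was tested as an interaction, chosen after the first comparisons had been seen. Limma called no member and no other gene (0% of all genes) in any of the 4 interactions. For the change between weeks at 0 nM, 13 members and 1910 genes had an unadjusted p under 0.05, and the members were led by PGAP3 (-1.18 ± 0.27, limma adjusted p = 0.30), UTP6 (0.87 ± 0.23) and DDX52 (0.62 ± 0.22). The other 3 interactions gave 1, 2 and 2 members at an unadjusted p under 0.05, and 362, 421 and 272 of all genes. Differences between the 4 construct medians above are therefore given as values and not as tested changes.

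Genes elsewhere whose proteins work with the members were listed by complex or family, 100 in all, of which 97 were tested. Their median difference between constructs was 0.03. In any of the 4 construct comparisons limma called 8 of them, 3 higher and 5 lower in the miR-186 clones. The counts per comparison were 4 at 0 nM in week 12, 4 at 100 nM in week 12, 4 at 0 nM in week 29 and 0 at 100 nM in week 29. Of the 97, 4 are 4.12%, against the 3.44%, 2.02% and 2.86% of all genes called in the first 3 of these comparisons (0.864% in the last), so the genes below are values of single genes and not a result about the partners. At 100 nM in week 29, 15 of the 97 had an unadjusted p under 0.05, as did 14.5% of all genes. With the replicate number as a block 2 partners were called there. Leaving out any 1 library of the groups compared gave 3 or 4, 1 or 2, 0 or 1 and 0 to 2 calls in the same order.

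Several partners with lower levels lie on chromosome 14, much of which was low in the miR-186 clones. Of its 452 genes averaging 1 FPKM or more, 84.3% had a difference below 0, against 52.8% over all chromosomes, with a median of -0.36. Among its 21 windows with 10 or more genes, 19 had a median below 0 and 11 a median below -0.4. In the 2 Mb windows of MED6, SPTLC2, SPTSSA and CCNK, the other genes had medians of -0.63 (10 genes), -0.46 (16), -0.21 (14) and -0.49 (5). Of the 5 neighbours of CCNK, 3 were below 0. On other chromosomes, the neighbours of the lower partner GSDME had a median of 0.45 (4 genes). Those of the higher partners GRB10, CDK13 and SMARCC1 had -0.19 (2 genes), 0.01 (5) and -0.09 (11).

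MED6, a Mediator subunit encoded on chromosome 14, was lower in the miR-186 clones in week 12, at 29.6 ± 2.69 against 61.8 ± 13.6 FPKM at 0 nM (SD, n = 3; log2 difference -1.03 ± 0.16, limma adjusted p = 0.0014) and by -0.64 ± 0.16 at 100 nM (limma adjusted p = 0.048). None of the other 28 Mediator partners passed. MED4 was at 68 ± 9.85 FPKM in the 12 vector and 57.5 ± 8.47 FPKM in the 12 miR-186 libraries, and CCNC at 49.3 ± 15.3 against 52.6 ± 13.7 FPKM (SD, n = 12). An SD over 12 libraries, here and below, pools both doses and both weeks of 3 clones. It is not the spread within groups of 3 libraries that limma used. SPTLC2, the serine palmitoyltransferase subunit that ORMDL proteins restrain, also on chromosome 14, was lower in 3 comparisons, by -1.01 ± 0.18 and -1.10 ± 0.18 in week 12 at 0 and 100 nM and by -0.82 ± 0.18 at 0 nM in week 29 (limma adjusted p = 0.0034, 0.0020 and 0.018). Its small subunit SPTSSA, on the same chromosome, was lower at 0 nM in both weeks, by -0.69 ± 0.18 and -0.73 ± 0.18 (limma adjusted p = 0.034 and 0.030). ORMDL1 (66.5 ± 14.7 against 73.9 ± 13.9 FPKM), ORMDL2 (58.4 ± 6.92 against 52.5 ± 5.66 FPKM) and SPTLC1 (119 ± 21.7 against 131 ± 25 FPKM) did not pass in any.

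CDK13, the paralog of CDK12 on chromosome 7, was higher at 0 nM in week 29, at 62.2 ± 3.99 against 42.7 ± 2.53 FPKM (SD, n = 3; 0.54 ± 0.14, limma adjusted p = 0.038). CCNK, the cyclin of both kinases, was at 47.5 ± 7.28 FPKM in the 12 vector and 32.8 ± 7.1 FPKM in the 12 miR-186 libraries (SD, n = 12) and did not pass. Of the 16 BAF partners of SMARCE1, SMARCC1 was higher at 0 nM in week 29 (0.47 ± 0.12, limma adjusted p = 0.041). Of the 3 MSL partners of MSL1, the acetyltransferase KAT8 was lower at 100 nM in week 12 (-0.53 ± 0.13, limma adjusted p = 0.037); the other 51 genes of its 2 Mb window on chromosome 16 had a median of -0.41 over all 24 libraries.

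In the ERBB list the adaptor GRB10 was higher at 100 nM in week 12, at 8.02 ± 1.77 against 1.64 ± 0.78 FPKM (SD, n = 3; 2.04 ± 0.51, limma adjusted p = 0.041). The receptor EGFR was at 149 ± 19.4 against 158 ± 42.1 FPKM over the 12 libraries of each construct (SD, n = 12) and did not pass. GSDME, a gasdermin on chromosome 7, was lower at 0 nM in week 12 (-1.05 ± 0.23, limma adjusted p = 0.014). No gene passed in the lists of PCGF paralogs with RING proteins (7 tested), exon junction partners of CASC3 (4), retinoid and thyroid receptors (5), AP2 subunits (4) and RAS proteins with their negative regulators (7). The most abundant of each list, in vector and miR-186 libraries (SD, n = 12), were PCGF5 at 29.3 ± 8.69 against 29.4 ± 6.08 FPKM, RBM8A at 102 ± 18.5 against 83.4 ± 12.3 FPKM, RARG at 48.7 ± 14 against 42.1 ± 11.6 FPKM, AP2M1 at 250 ± 27.3 against 178 ± 29 FPKM and NRAS at 24.5 ± 5.09 against 25.6 ± 4.79 FPKM.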

How the data were processed

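RNA of HaCaT clones was sequenced in 24 libraries, 3 per group, from TruSeq Stranded mRNA libraries run in 1 pool, per the labels' protocols. The deposited table holds FPKM values per gene, which the authors made with STAR 2.6.0c and Cuffdiff 2.2.1 on hg38, per the submitters' processing notes. Its gene models, filters and strand setting are not given in the sources used here. Values are normalized to gene length and depth, so no count model was used. Gene IDs were matched to GENCODE release 29 on GRCh38 (58261 of 58381).

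The 14228 genes averaging 0.5 FPKM or more in the 24 libraries were fitted as log2(FPKM + 0.5) in limma 3.58.1 (R 4.3.3) with trended, robust variances, the 8 groups together (16 residual degrees of freedom), and Benjamini-Hochberg adjustment over all genes at 0.05. Fold changes are on this scale, which understates those of low genes. The precision of a value is that of 3 libraries. The code was tested on simulated data.

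The members and gene lists were chosen with earlier results of these data known. Values without the library that stands apart and the chromosome 14 summary were added after the data were seen. Full values are given for 6 members fixed by name and for the member with the largest and the smallest difference in each role group, members past the threshold, or else the 3 with the smallest p, in dose and week comparisons, and partners past the threshold or high in their list. The 5 largest and smallest other genes of the segment, and 3 genes on each side, follow the same rule, while EZH1, VPS25, AC005726.3, the other genes after SMARCE1 and the stretch boundaries were chosen after their values were seen.

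Alternatives were pseudocounts of 0.1 and 1, no filter, a mean of at least 1 FPKM, median ratio scaling, a correction per library for gene GC content (natural spline, 5 degrees of freedom), the replicate number as a block, only the groups compared, and each library left out. Same-numbered libraries deviated together (every correlation over 0.1) in 4 of 12 comparisons: iAs in vector clones at week 29, the weeks in 0 nM vector clones (0.307, 0.521 and 0.168) and in 100 nM miR-186 clones (0.341, 0.413 and 0.385), and the constructs at 0 nM in week 29. The labels do not say whether a number marks a clone.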

Additional observations from a re-analysis of the deposited data

How the results depend on the processing

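No named change reversed, and the 4 interaction tests called no member under any of 21 settings each. The members' median construct difference at 0 nM in week 29, 0.63, was 0.68 with a pseudocount of 0.1 and 0.72 with GC correction, and at 100 nM in week 12, 0.64, it was 0.73 with GC correction. Leaving out each library gave 0.85 to 0.92 at 0 nM and 0.63 to 0.71 at 100 nM in week 12, and 0.63 to 0.69 and 0.40 to 0.59 in week 29.

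For iAs in vector clones at week 12, with 1 member called, a pseudocount of 1 gave 2, no filter 0, a mean of at least 1 FPKM 3, median ratio scaling 4, GC correction 0, the replicate block 8, the block with GC correction 0, only the groups compared 0, and leaving out each library 0 to 0. Between weeks in miR-186 clones at 0 nM, with 4 called, no filter gave 1, median ratio scaling 2, GC correction 2, the replicate block 9, only the groups compared 0, and leaving out each library 0 to 5. At 100 nM, with 17 called, no filter gave 6, GC correction 5, the block with GC correction 8 (the replicate block alone 21), only the groups compared 1, and leaving out each library 1 to 19. In vector clones the block with GC correction gave 2 members between weeks at 0 nM, and the replicate block 1 at 100 nM.

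Of the partner genes at 0 nM in week 12, with 4 called, the replicate block gave 9, the block with GC correction 10 and only the groups compared 0; leaving out each library gave 3 to 4. At 0 nM in week 29, with 4 called, no filter and only the groups compared each gave 1, GC correction 7, the block with GC correction 10, and leaving out each library 0 to 1. At 100 nM in week 12, with 4 called, no filter gave 1, only the groups compared 0 and leaving out each library 1 to 2. At 100 nM in week 29, with 0 called, GC correction gave 2, the replicate block 2, the block with GC correction 3, and leaving out each library 0 to 2. The cause was not tested. Shares of all genes called under the alternatives are not given, so whether the counts of members and partners follow them cannot be told.

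In the 4 comparisons where every same-number correlation was over 0.1, the replicate block alone moved no count by over 1.5 times. In others it moved counts, as given above, and whether the numbers pair libraries there is not known. For iAs in vector clones at week 12 the correlations were 0.0715, 0.706 and 0.437. Between weeks in miR-186 clones at 0 nM they were 0.0889, 0.421 and 0.339. The medians carry no test, so no replicate block was fitted for them. Precision is limited by 3 clones per construct, by the absence of counts, and by libraries that differ in their GC trend.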
